A study of Mus musculus with 2 samples.

Results

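The levels of 10 genes that mark killer lymphocytes and T cell subsets were followed through the cells of mouse brains with and without a melanoma: Gzma, Gzmb, Prf1, Nkg7, Fasl, Klrd1, Cd8a, Cd4, Il17a and Foxp3. They were chosen by name, with earlier results of these data known, and all 10 were found among the 55401 genes of the count matrices. Levels were read in barcodes with at least 1000 UMIs (unique molecular identifiers, each standing for 1 captured transcript), at least 500 genes and at most 20% mitochondrial UMIs.

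The metastasis library came from a pool of 3 brains of C57BL/6J mice aged 10 weeks that carried intracranial grafts of B16/F10-BrM, a brain-adapted subline of mouse melanoma B16. The naive library came from a pool of 3 brains of the same strain and age without injected tumour cells. Both suspensions were cleared of myelin on 30% Percoll and enriched on beads against ACSA-2, a surface antigen of astrocytes, before about 10000 cells per condition entered 10x 3′ v3 capture. Leukocytes were therefore not a target of the enrichment, the injected line is 1 graft model, and the contribution of each pooled animal is unknown.

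There was 1 library per condition, so the spread between animals was not measured, no test was made, and every 95% interval covers counting error only. The titles of both records had been interchanged by the submitters since release. With the present titles, the pigment gene Pmel summed to 174742 UMIs in metastasis and 4774 in naive, over barcodes of any depth. After filters and removal of likely doublets, 12939 cells with 66861711 UMIs were kept in metastasis, and 13188 cells with 48324531 UMIs in naive, at medians of 2815 and 2766 UMIs per cell. Before the filters, 13937 barcodes in metastasis and 14301 in naive had at least 1000 UMIs, above the number loaded, so a kept barcode need not stand for an intact cell. The libraries shared 47 kept barcodes, and 1 T/NK-like cell of metastasis had a barcode that was also kept in naive.

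Cytotoxic lymphocytes kill by releasing granules at a contact site. Perforin opens the target membrane, granzymes enter and cleave proteins that lead to cell death, and Fas ligand on the surface offers a second route through the death receptor Fas. Natural killer (NK) cells and CD8 T cells use both routes, whereas CD4 T cells divide into helper, interleukin-17-producing and Foxp3-dependent regulatory programmes. In the healthy brain, lymphocytes are rare and sit mainly in the meninges, choroid plexus and perivascular spaces.

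The stretch around the transcription start is shown for the granule genes Gzma, Gzmb, Prf1 and Nkg7. It is also shown for Il17a, the member with the lowest ratio of metastasis to naive. The sequences are from RefSeq on GRCm38.p6, run 5′ to 3′ on the strand of the gene, and span 250 bases before to 50 bases after the start. Capitals mark matches, on either strand, to 4 motifs: TGTGGT or ACCACA (RUNX), AGGTGTNA or TNACACCT (T-box), AGGTCA or TGACCT (ROR) and TGANTCA (AP-1).
Gzma, chr13:113100932-113101231, minus strand: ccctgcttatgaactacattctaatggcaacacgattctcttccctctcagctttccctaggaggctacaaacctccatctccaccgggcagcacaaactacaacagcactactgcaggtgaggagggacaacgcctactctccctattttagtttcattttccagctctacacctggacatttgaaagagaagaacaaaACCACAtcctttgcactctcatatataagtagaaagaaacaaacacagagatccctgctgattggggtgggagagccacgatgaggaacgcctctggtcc
Gzmb, chr14:56262285-56262584, minus strand: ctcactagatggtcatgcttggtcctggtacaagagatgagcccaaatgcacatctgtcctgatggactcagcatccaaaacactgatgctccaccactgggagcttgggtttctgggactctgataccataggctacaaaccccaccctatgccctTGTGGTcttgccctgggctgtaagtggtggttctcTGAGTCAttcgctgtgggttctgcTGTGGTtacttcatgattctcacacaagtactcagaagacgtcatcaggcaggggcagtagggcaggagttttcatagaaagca
Prf1, chr10:61297586-61297885, plus strand: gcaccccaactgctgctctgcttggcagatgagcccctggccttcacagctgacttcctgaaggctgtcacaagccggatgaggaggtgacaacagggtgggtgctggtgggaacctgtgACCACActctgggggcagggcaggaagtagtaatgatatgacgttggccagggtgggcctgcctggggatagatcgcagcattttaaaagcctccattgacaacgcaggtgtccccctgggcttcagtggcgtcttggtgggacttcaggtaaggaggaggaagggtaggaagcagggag
Nkg7, chr7:43436888-43437187, plus strand: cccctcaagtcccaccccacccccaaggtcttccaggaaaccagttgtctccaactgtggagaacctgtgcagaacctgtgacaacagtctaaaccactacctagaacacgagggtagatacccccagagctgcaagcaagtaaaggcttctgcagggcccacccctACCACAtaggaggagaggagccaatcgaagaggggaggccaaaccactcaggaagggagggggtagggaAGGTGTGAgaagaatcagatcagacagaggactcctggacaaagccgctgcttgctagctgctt
Il17a, chr1:20730655-20730954, plus strand: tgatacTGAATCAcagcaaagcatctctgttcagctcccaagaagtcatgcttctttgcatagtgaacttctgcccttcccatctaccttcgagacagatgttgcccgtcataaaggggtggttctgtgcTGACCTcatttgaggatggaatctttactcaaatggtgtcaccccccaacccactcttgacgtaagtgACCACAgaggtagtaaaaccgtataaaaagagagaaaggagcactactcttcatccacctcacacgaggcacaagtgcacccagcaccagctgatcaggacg

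The RUNX letters stood in all 5 of these windows, 50 bases before the start of Gzma, 93 and 34 before Gzmb, 130 before Prf1, 83 before Nkg7 and 52 before Il17a. The same letters were in 16.8% of 32851 RefSeq promoter windows of this length. Only Nkg7 of the 5 held the T-box letters, 14 bases before its start, against 3.03% of all windows. Il17a held the ROR letters 120 bases before its start (16.3% of all windows) and the AP-1 letters 244 before (7.81%). Gzmb also held the AP-1 letters, 58 bases before its start. The windows of Fasl and Cd8a held none of the 4, and of 2 listed starts of Foxp3 only the downstream one held the ROR letters. These matches describe letters and not binding.

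The cells that carry the members were found without using them. All 10 were left out of the genes used for clustering, and a cluster was named T/NK-like from 18 other markers, among them Cd3e and Trbc2 of the T cell receptor complex and Ncr1 of NK cells. This gave 107 T/NK-like cells in metastasis, 0.827% of kept cells (0.678 to 0.998%), and 73 in naive, 0.554% (0.434 to 0.695%). Each of them had UMIs of at least 2 of the 18 markers, with medians of 8 in metastasis and 7 in naive. Cd3e was detected in 54.2% of the T/NK-like cells of metastasis and 61.6% of those of naive, and Trbc2 in 74.8% and 82.2%, against at most 0.296% for either gene in oligodendrocyte-like cells. The T/NK-like cells were shallow, with medians of 1456 UMIs in metastasis and 1431 in naive, and 59 and 39 of them lay under 1500 UMIs. With a limit of 2000 UMIs only 19 cells of metastasis and 15 of naive had the name.

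A group of 9 metastasis cells had T/NK markers but was led by the oligodendrocyte genes Mal and Opalin, and it was left out of the class. It held 53 UMIs of Gzmb, 51 of Nkg7 and 19 of Cd8a, and a single cell of it had 34 of the Gzmb UMIs. The T/NK-like cells also held transcripts of other classes. The 7 choroid plexus markers summed to 11035 CPM, UMI counts scaled to a common class total, in T/NK-like cells of metastasis and 22204 in those of naive, with all 7 detected in both. In barcodes of 100 to 300 UMIs, which stand for droplets with free RNA, they summed to 105027 CPM in metastasis and 215571 in naive. The 7 melanoma markers summed to 671 CPM in T/NK-like cells of metastasis and 49.4 in those of naive, with 1 and 4 of the 7 at 0. The part of these transcripts in the comparisons that follow was not tested.

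At the limit of 1000 UMIs per barcode, most UMIs of the 10 members lay in this small class. It held 858 of their 1339 UMIs in kept cells of metastasis, 64.1% (61.4 to 66.7%), and 501 of 601 in naive, 83.4% (80.1 to 86.3%). With a limit of 2000 UMIs, at which few cells had the name, the part in metastasis was 34.0%. The class made up only 0.283% of all kept UMIs in metastasis and 0.251% in naive. By member, the part of the UMIs inside the class ran from 30.8% for Cd4 to 100% for Il17a in metastasis. In naive it ran from 33.3% for Foxp3, which had 3 UMIs in all, to 100% for Gzmb and Fasl.

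**Figure D1:**
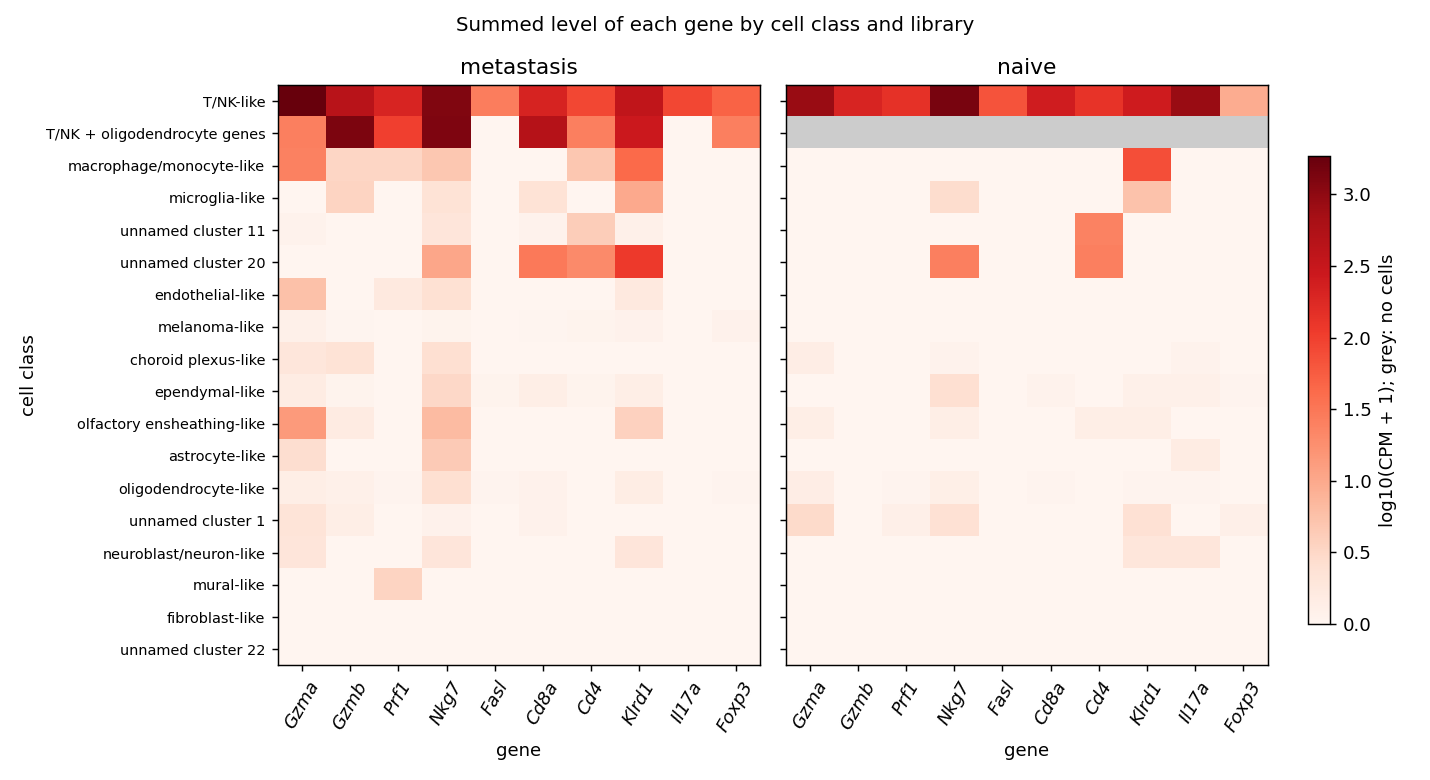
Summed level of each member (columns) in each cell class (rows), metastasis on the left and naive on the right, as log10 of CPM plus 1. The T/NK-like row is the highest named class for all 10 members in both libraries, and Klrd1 and Cd4 also show in myeloid rows. In metastasis the oligodendrocyte-led group, which is not a named class, stands above that row for Gzmb, Nkg7 and Cd8a. Grey marks this group in naive, where it had no cells.

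Over all kept cells, 3 members were at least 2-fold higher in metastasis: Gzma, Gzmb and Klrd1. Of 21742 genes with at least 20 UMIs, 13% were that much higher and 15% were that much lower, and 8 of the 10 members had that many UMIs. Gzma had 444 UMIs in metastasis and 119 in naive, with a log2 ratio of 1.43 (1.14 to 1.74). Gzmb, with 155 UMIs in metastasis and 24 in naive, was at 2.22 (1.60 to 2.91) on that scale, and Klrd1, with 173 and 61, at 1.04 (0.61 to 1.48). Il17a alone was at least 2-fold lower, with 16 UMIs in metastasis and 109 in naive, at a log2 ratio of -3.24 (-4.09 to -2.47). Between these, Prf1 had a log2 ratio of 0.93, Cd4 of 0.91, Cd8a of 0.62 and Nkg7 of 0.33, while the median gene had -0.16. These sums take in the number of lymphocytes as well as the level in each of them. With a limit of 2000 UMIs per barcode, 6 members were at least 2-fold higher, Prf1, Cd8a and Cd4 being added, and with at most 10% mitochondrial UMIs only Gzma and Gzmb were. The share of all genes that much higher was not counted under these limits, so these counts cannot be set against a background.

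Within the T/NK-like class the total number of its cells no longer enters, but the mix of its sub-clusters does. Here 2 of the 8 members with at least 20 UMIs were at least 2-fold higher in metastasis, Gzma and Gzmb, and 1 was at least 2-fold lower, Il17a. Of the 2784 genes with as many UMIs in the class, 6.93% were that much higher and 3.84% that much lower, and the median log2 ratio was 0.04. In both libraries the sub-cluster led by Slc1a2 and Id3 was among the 2 largest; the other was led by Tnfrsf4 and Ctla4 in metastasis and by Igfbp4 and Ccr7 in naive.

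**Figure D2:**
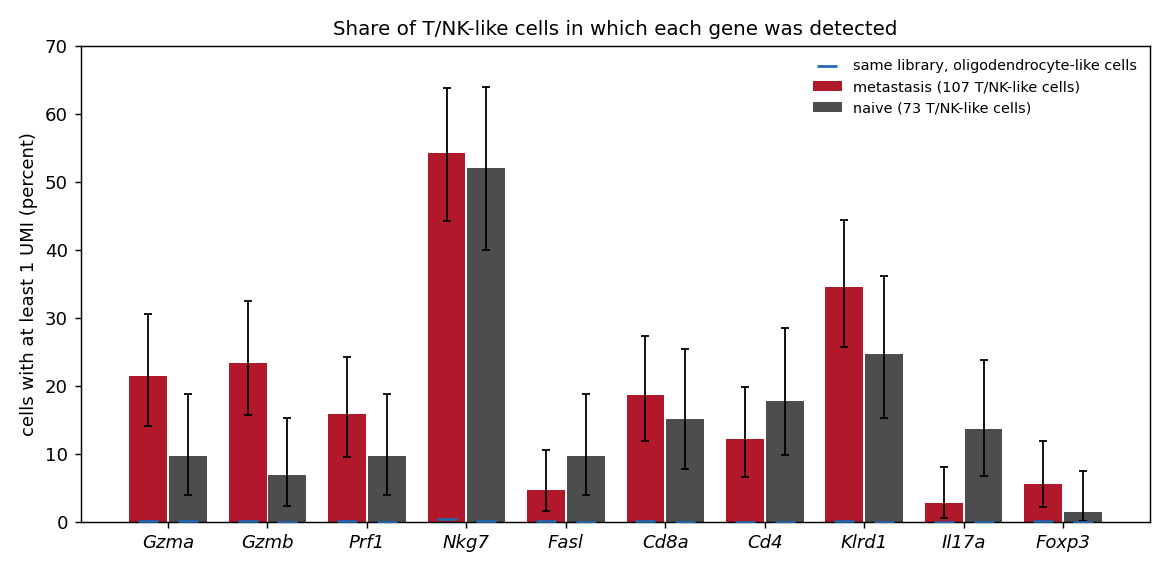
Percent of T/NK-like cells with at least 1 UMI of each member, for 107 cells of metastasis and 73 of naive, with exact 95% binomial intervals; short blue lines give the percent in oligodendrocyte-like cells of the same library. Gzma and Gzmb stand at 21.5% and 23.4% in metastasis and at 9.59% and 6.85% in naive, and Il17a at 2.80% in metastasis and 13.7% in naive.

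Gzma (chromosome 13, 113093825 to 113100981, minus strand) encodes granzyme A, a tryptase-like granule protease. T/NK-like cells held 350 UMIs in metastasis, or 1849.7 CPM, and 102 in naive, or 840.4 CPM. It was detected in 23 of 107 cells of metastasis, 21.5% (14.1 to 30.5%), with 1 to 58 UMIs in a positive cell and a median of 10. In naive it was detected in 7 of 73 cells, 9.59% (3.94 to 18.8%), with 1 to 34 UMIs and a median of 11. Positive cells thus held like amounts in both libraries, and the share of positive cells was the larger one in metastasis, although the intervals of the shares overlap. The log2 ratio of the summed level was 1.14 (0.82 to 1.47). It stayed at least 2-fold without the highest cell of each library, at 1.46. It fell short of 2-fold with at most 10% mitochondrial UMIs, at 0.97, with the 9 oligodendrocyte-led cells kept in the class, at 0.86, and with cells named 1 by 1 from 2 markers, at 0.39.

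Gzmb (chromosome 14, 56258838 to 56262260, minus strand) encodes granzyme B, the protease that cleaves after aspartate and activates caspases. There were 85 UMIs in metastasis and 24 in naive, and the log2 ratio of the summed level was 1.18 (0.52 to 1.90). It was detected in 25 cells of metastasis, 23.4% (15.7 to 32.5%), and in 5 of naive, 6.85% (2.26 to 15.3%). A single cell of metastasis held 27 of the 85 UMIs, and the highest cell of naive held 8 of 24. Without those cells the log2 ratio was 1.22.

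Prf1 (chromosome 10, 61297833 to 61304680, plus strand) encodes perforin. It had 38 UMIs in 17 cells of metastasis, 15.9% of them, and 17 UMIs in 7 cells of naive, 9.59%. The log2 ratio of 0.52 had an interval from -0.34 to 1.44, so a difference was not detectable at this depth.

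Nkg7 (chromosome 7, 43437073 to 43438249, plus strand) encodes a granule membrane protein that is needed for granule release. It was the member found in most cells of the class, in 58 of metastasis, 54.2% (44.3 to 63.9%), and in 38 of naive, 52.1% (40.0 to 63.9%). The summed level was 1226 CPM in metastasis, against 1401 CPM in naive, and the log2 ratio was -0.19 (-0.48 to 0.10). This interval leaves out a 2-fold difference in either direction. With cells named 1 by 1 from 2 markers the log2 ratio was -0.74 (-1.02 to -0.47), which takes in a 2-fold lower level in metastasis. Under that naming, however, Nkg7 was in 47.7% of the cells of metastasis and 46.7% of those of naive. The log2 ratio of every other member was also lower than in the T/NK-like class, and the cause was not tested.

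Fasl (chromosome 1, 161780689 to 161788495, minus strand), the ligand of the death receptor Fas, was near the limit of detection. It had 5 UMIs in 5 cells of metastasis and 8 UMIs in 7 cells of naive, too few for a ratio. All 7 positive cells of naive and 4 of the 5 of metastasis also had Nkg7.

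Klrd1 (chromosome 6, 129591782 to 129598775, plus strand) encodes CD94, the partner of NKG2 receptors. It had 68 UMIs in 37 cells of metastasis, 34.6% (25.6 to 44.4%), and 31 UMIs in 18 cells of naive, 24.7% (15.3 to 36.1%). The log2 ratio of 0.49 (-0.14 to 1.15) did not reach the 2-fold size that Klrd1 had over all kept cells, where other cell classes carried much of it.

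Cd8a (chromosome 6, 71373427 to 71379173, plus strand), the alpha chain of the co-receptor of cytotoxic T cells, had 39 UMIs in 20 cells of metastasis and 30 UMIs in 11 cells of naive. These were 18.7% and 15.1% of the class. The log2 ratio was -0.26 (-0.99 to 0.47). Of the Cd8a-positive cells, 16 of 20 in metastasis and 11 of 11 in naive also had Cd8b1, the beta chain.

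Cd4 (chromosome 6, 124864692 to 124888221, minus strand), the co-receptor of helper and regulatory T cells, had 16 UMIs in 13 cells of each library, 12.1% of the class in metastasis and 17.8% in naive. The log2 ratio was -0.64 (-1.74 to 0.45), and -1.46 (-2.49 to -0.43) with cells named 1 by 1 from 2 markers. Under that naming the log2 ratio of every member was lower than in the T/NK-like class. No cell of either library had UMIs of both Cd8a and Cd4, although most positive cells had 1 or 2 UMIs, at which a gene is often missed.

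Il17a (chromosome 1, 20730905 to 20734496, plus strand), the cytokine that draws neutrophils and marks interleukin-17-producing T cells, ran the other way. T/NK-like cells held 16 UMIs in metastasis, or 84.6 CPM, and 102 in naive, or 840.4 CPM. The 16 UMIs of metastasis came from 3 cells with 3, 6 and 7 UMIs, 2.80% of the class (0.582 to 7.98%). The 102 of naive came from 10 cells with 1 to 32 UMIs and a median of 9, 13.7% of the class (6.77 to 23.8%). Both the share and the amount per positive cell were the smaller ones in metastasis, while the intervals of the shares overlap. The log2 ratio was -3.31 (-4.17 to -2.54), and -3.60 without the highest cell of each library.

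Foxp3 (chromosome X, 7573644 to 7595245, plus strand), the transcription factor of regulatory T cells, had 9 UMIs in 6 cells of metastasis and 1 UMI in 1 cell of naive. Those are 5.61% (2.09 to 11.8%) and 1.37% (0.0347 to 7.40%) of the class, and the total is too low for a ratio. Its locus overlaps Flicr on the same strand and Ppp1r3f, Gm36995 and Ccdc22 on the other, so a few UMIs may be shared with them. In metastasis 6 of the 6 positive cells also had Ikzf2, 5 had Ctla4 and 4 had Gzmb.

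**Figure D3:**
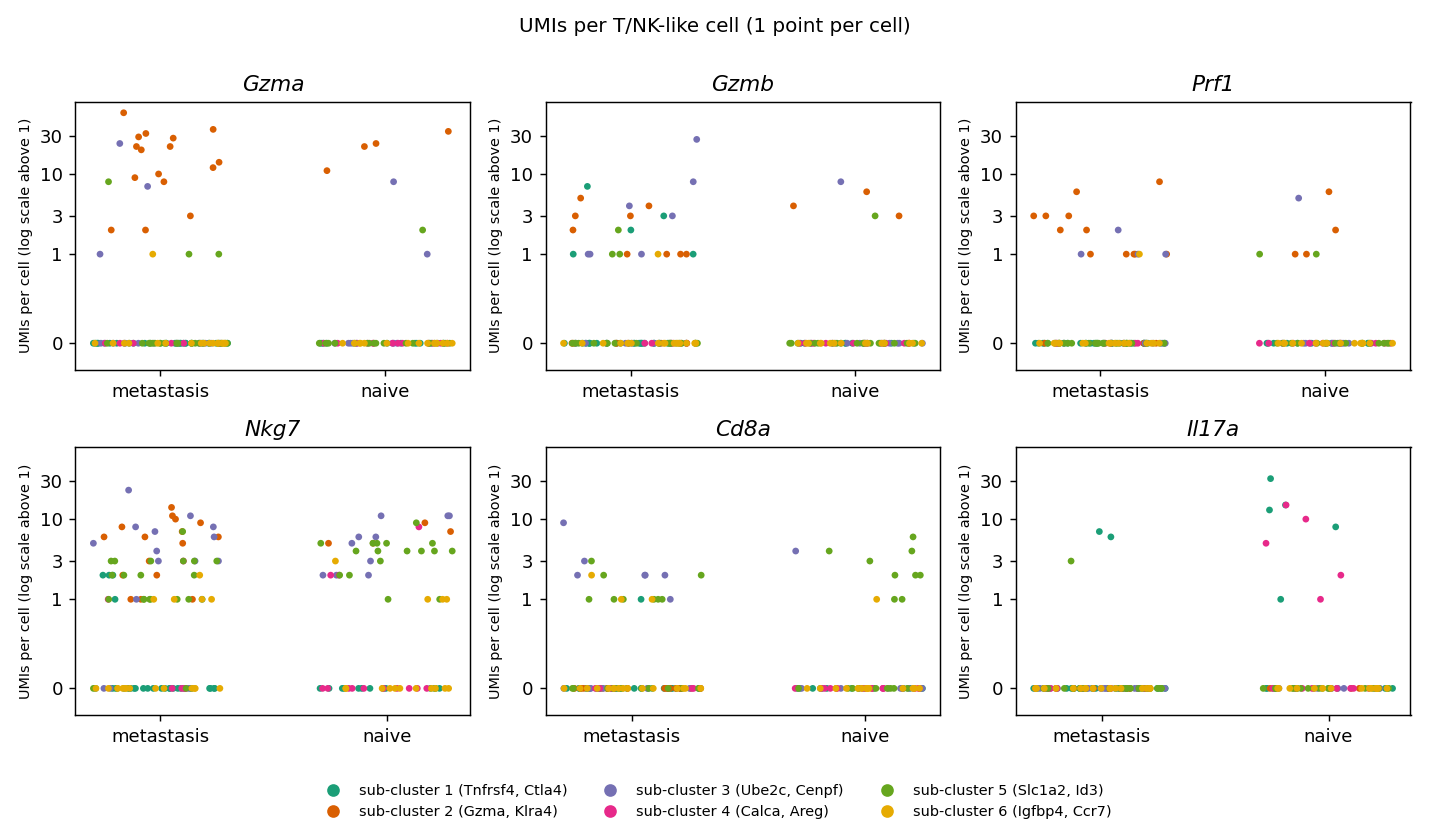
UMIs of 6 members in every T/NK-like cell, metastasis left and naive right in each panel, 1 point per cell, on an axis that is linear to 1 and logarithmic above; colours give the sub-cluster. Gzma points above 10 UMIs are nearly all from the NK-like sub-cluster in both libraries, and Il17a is above 0 in 3 cells of metastasis and 10 of naive.

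Gzma, Gzmb and Il17a kept the order of the libraries at equal depth, and Nkg7 did not. With each cell thinned to 1000 UMIs, the mean share over draws was 19.9% in metastasis and 8.10% in naive for Gzma, 16.8% and 6.76% for Gzmb, and 2.79% and 12.5% for Il17a. For Nkg7 it was 46.8% in metastasis and 48.2% in naive, whose intervals overlap as they do unthinned. The share in oligodendrocyte-like cells, which lack these genes, was at most 0.419% in metastasis and 0.105% in naive, both for Nkg7, at median depths of 2570 and 2874 UMIs. Nkg7 was in 0.738% of ependymal-like cells of metastasis and 0.496% of those of naive, and in 0.213% and 0.32% of microglia-like cells. If all UMIs of the T/NK-like class were free RNA, Gzma would have had 2.34 UMIs in metastasis and 0.0227 in naive, and Nkg7 3.02 and 0.261.

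The granule genes overlapped in part of the cells. Of the Gzma-positive cells, 22 of 23 in metastasis and 7 of 7 in naive had Nkg7, 13 and 5 had Prf1, and 13 and 3 had Gzmb. Of the Gzmb-positive cells, 13 of 25 in metastasis and 3 of 5 in naive had Gzma, and 10 and 5 had Prf1. Only 22 of the 58 Nkg7-positive cells of metastasis and 7 of the 38 of naive had Gzma. At least 1 of Gzma, Gzmb and Prf1 was detected in 37 of 107 cells of metastasis, 34.6% (25.6 to 44.4%), and in 9 of 73 cells of naive, 12.3% (5.80 to 22.1%). All 3 were detected in 8 cells of metastasis and 3 of naive. No member was detected in 28 T/NK-like cells of metastasis and 17 of naive. Of the Cd8a-positive cells, 4 of 20 in metastasis had Gzmb, 20%, beside 23.4% of the whole class, and 1 of 11 in naive had it, 9.09%, beside 6.85%. Gzma was in 2 of the 20 in metastasis and none of the 11 in naive, numbers too small to set apart from the class.

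Clustering the T/NK-like cells again, still without the members, gave 6 sub-clusters. Only 1 could be named, an NK-like sub-cluster with 16 cells of metastasis and 4 of naive and with Klra4, Klra8, Tyrobp and Ncr1 among its leading genes. All 20 of its cells had Gzma and Nkg7, with 2 to 58 UMIs of Gzma per cell in metastasis and 11 to 34 in naive. It held 307 of the 350 Gzma UMIs of metastasis, 87.7%, and 91 of the 102 of naive, 89.2%. Prf1 was in 12 of its 16 cells of metastasis and 4 of 4 of naive, and Cd8a and Cd4 were in none. Within these cells the summed Gzma level was 11671 CPM in metastasis and 15709 CPM in naive, so the higher level of the whole class in metastasis was not seen inside the NK-like sub-cluster.

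Gzmb was spread differently. A sub-cluster of 15 cells of metastasis and 11 of naive, led by the proliferation genes Ube2c, Cenpf, Mki67 and Top2a together with Gzmc, held 45 of the 85 Gzmb UMIs of metastasis and 8 of the 24 of naive. A single cell held 27 of the 45, which leaves 18 without it, and another single cell held all 8 in naive. Gzmb was in 7 of its 15 cells of metastasis and 1 of its 11 of naive, and Cd8a in 7 and 1. These cells had medians of 2279 UMIs in metastasis and 1525 in naive, so the counts were not taken at equal depth. Mki67 was in 5 of the 15 and 3 of the 11. Cd8b1 was in 7 of the 15 and 3 of the 11, and the NK marker Ncr1 in 3 and 5. This sub-cluster was therefore not made of CD8 T cells alone. The NK-like sub-cluster held 21 of the Gzmb UMIs in metastasis and 13 in naive. The sub-cluster led by Tnfrsf4 and Ctla4, with 31 cells of metastasis and 12 of naive, held 14 in metastasis and none in naive.

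That Tnfrsf4 and Ctla4 sub-cluster also carried the helper-type members. Foxp3 was in 5 of its 31 cells of metastasis and 1 of its 12 of naive, and Cd4 in 8 of each. Il17a was in 2 of its cells of metastasis, with 13 UMIs, and 5 of naive, with 69 UMIs. The other Il17a-positive cells of naive, 5 cells with 33 UMIs, were in a sub-cluster of 6 cells of metastasis and 13 of naive that was led by Calca, Areg, Trgc1 and Cd163l1. None of its 6 cells of metastasis had Il17a. The leading genes were seen mainly in its naive cells. Calca and Areg were in 0 of the 6 cells of metastasis, and Trgc1 and Cd163l1 in 1 each. In the 13 of naive, Calca was in 3, Areg in 4, Trgc1 in 6 and Cd163l1 in 2. The sub-cluster passed both the list of gamma-delta T cells and that of type 2 innate lymphoid cells and so was left unnamed. Across the class, 8 of the 10 Il17a-positive cells of naive had Cd3e, 5 had Cd4 and 2 had Trgc1, while 1, 0 and 0 of the 3 of metastasis did. Trac was in 7 of those 10 cells of naive and in 3 of the 3 of metastasis, and Trbc2 in 9 and 3.

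The remaining sub-clusters held little Gzma and Gzmb. One, with 21 cells of metastasis and 18 of naive, was led by Slc1a2, an astrocyte marker, with Id3, Cd8b1 and Gzmk. Cd8a was in 9 of its cells in each library and Nkg7 in 18 of metastasis and 17 of naive. Gzma was in 3 of metastasis and 1 of naive, and Gzmb likewise in 3 and 1. The other, 18 cells of metastasis and 15 of naive led by Igfbp4, Ccr7 and Lef1, genes of resting T cells that recirculate through lymph nodes, had Nkg7 in 5 and 4 and Gzmb in 1 and 0. Ccr7 was in 2 of its 18 cells of metastasis and 9 of its 15 of naive, and Lef1 in 7 and 10.

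**Figure D4:**
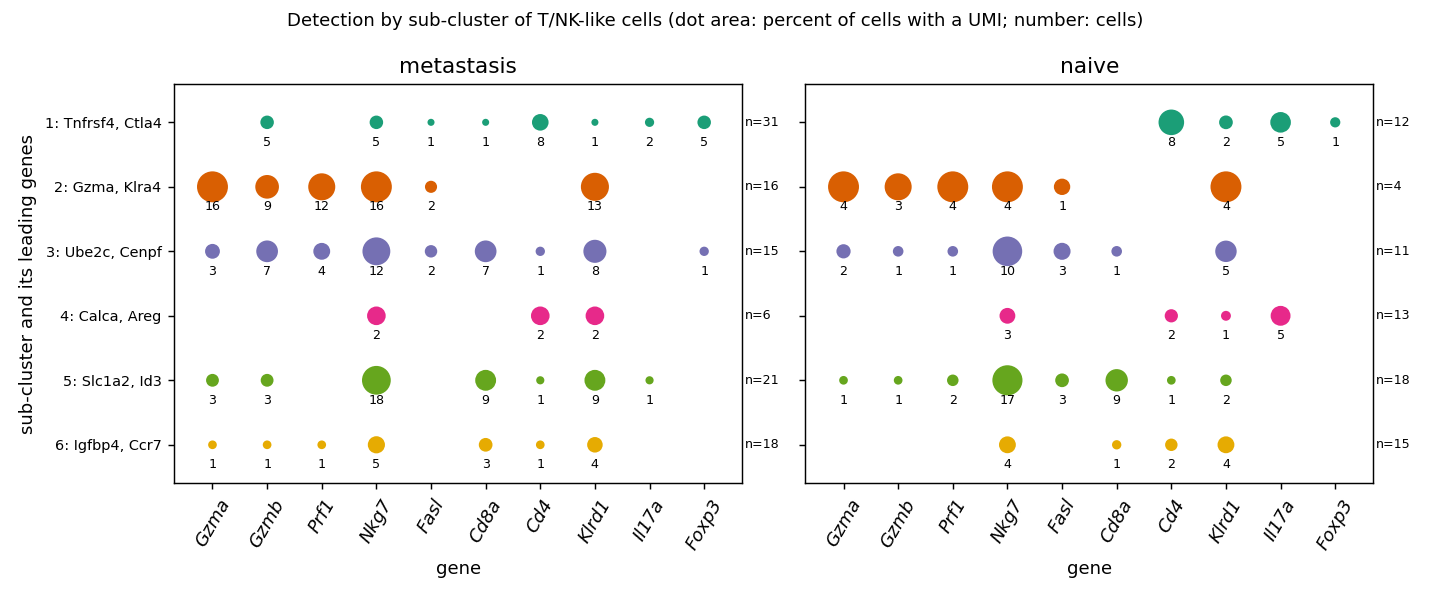
Detection of each member (columns) in the 6 sub-clusters of T/NK-like cells (rows), metastasis left and naive right; dot area is the percent of cells with a UMI, the number under it the positive cells, and n the cells. Gzma is in all 16 NK-like cells of metastasis and all 4 of naive, and Il17a is in 10 cells of naive in the rows led by Tnfrsf4 and by Calca.

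Gzma was also read apart in cells with and without T cell receptor transcripts. In metastasis 96 T/NK-like cells had a UMI of a CD3 or T cell receptor gene and 11 did not, and Gzma was in 13.5% of the 96 and 90.9% of the 11. In naive the split was 69 and 4 cells, with Gzma in 8.70% and 25%. Cd8a, Il17a and Foxp3 were in none of the cells without such a UMI in either library. This split does not separate T cells from NK cells. In the NK-like sub-cluster Trbc2 was in 4 of 16 cells of metastasis and 2 of 4 of naive, and all 20 cells had Gzma.

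Other genes of these pathways were counted in the same cells in 8 lists, chosen with earlier results of these data known. Among regulatory T cell genes, 4 of 7 with at least 20 UMIs were at least 2-fold higher in metastasis and none lower, with a median log2 ratio of 1.20 beside 0.04 over all genes. The co-stimulatory receptor Tnfrsf4 had 53 UMIs in metastasis and 3 in naive, at a log2 ratio of 3.50 (1.88 to 5.83). The transcription factor Ikzf2 had 73 UMIs in metastasis and 18 in naive, at 1.38 (0.62 to 2.21). The inhibitory receptor Ctla4 had 61 and 22, at 0.83 (0.11 to 1.60), and the actin-capping gene Capg stood at 0.18. The sub-cluster led by Tnfrsf4 and Ctla4 made up 31 of 107 T/NK-like cells of metastasis and 12 of 73 of naive, and its part in these ratios was not tested.

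Among NK and killer lectin receptors, 2 of 10 were at least 2-fold higher in metastasis, none was lower, and the median log2 ratio was 0.10. The higher ones were the Ly49 genes Klra4, with 38 UMIs in metastasis and 1 in naive, and Klra8, with 28 and 1, which have near-identical neighbours, so reads may be divided among them. The adaptor Hcst had a log2 ratio of -0.36, Klrk1 of 0.55 and Klre1 of 0.68. Of the genes of granule loading and release 1 of 7 was higher, Serpinb9 with 18 UMIs in metastasis and 5 in naive, none was lower, and the median was -0.01. The proteoglycan Srgn had a log2 ratio of 0.03, Ctsw of -0.01, Lamp1 of -0.08 and Serpinb6b of 0.65. Of the other granzymes only Gzmc had 20 UMIs, 38 in metastasis and 2 in naive, at a log2 ratio of 3.61, with a wide interval that begins at 1.66. It was detected in only 4 cells of metastasis and 2 of naive, and Gzmm had 3 UMIs in metastasis and 4 in naive.

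Effector cytokines other than Il17a did not reach 2-fold in any of 3 genes, with a median log2 ratio of 0.03. The chemokine Ccl5 had a log2 ratio of 0.31 (0.18 to 0.45), Xcl1 of 0.03, and interferon gamma, Ifng, of -0.80 (-1.44 to -0.17), while Il2 had 5 UMIs in metastasis and 1 in naive. Il17f had no UMI in T/NK-like cells of either library, which allows at most 3 UMIs in each. Among lineage transcription factors 1 of 7 was higher, Ikzf2, and 2 were lower, Lef1 at -1.33 (-2.26 to -0.43) and Tox at -1.96 (-3.62 to -0.52), with a median of -0.15, while Runx3 was at -0.04 and Tcf7 at -0.15. None of 13 genes of the T cell receptor complex and none of 2 measured genes of death receptors passed 2-fold. The receptor genes had a median of -0.03, with Trbc2 at -0.12, Cd3g at -0.21, Cd3d at 0.21 and Trbc1 at -0.03; Casp8 was at -0.29 and Cflar at -0.53, and Tnf had 7 UMIs in each library.

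Outside the T/NK-like class, Klrd1 and Cd4 had UMIs in myeloid cells. Klrd1 was found in an immune sub-cluster led by Ly6i, Il1b, Ccr7 and Cd209a, a mix of monocyte and dendritic cell genes. It was in 21 of its 162 metastasis cells, a share with an interval of 8.21 to 19.1%, and in 4 of its 10 naive cells, 12.2 to 73.8%. The cells differed between libraries, with Cd209a in 12 of the 162 and 7 of the 10. The cells of this sub-cluster had a median of 0 of the 18 T/NK markers, and 1 of the 162 had Nkg7. Cd4 was in 20 of 1304 metastasis cells, with 25 UMIs, and in 2 of 28 naive cells of a macrophage-type cluster led by Ms4a7, Wfdc17, Lyz2 and Spp1. The cell with the most Cd4 there had 4 UMIs and none of the T/NK markers. With immune cells clustered again, Cd4 was in 7 of 186 cells of metastasis, 3.76%, and 2 of 54 of naive, 3.70%, of a sub-cluster led by Cxcl13, H2-Eb1 and Mrc1. In metastasis it was also in 2 of 153 cells of an immune sub-cluster led by oligodendrocyte genes, 1.31%, near the 1.53% of the macrophage-type cluster. The summed Cd4 level of that cluster was 3.14 CPM in metastasis and 23.1 CPM in naive, against 0.550 and 0.0935 CPM in barcodes of 100 to 300 UMIs, and no oligodendrocyte-like cell of either library had Cd4. Most of these cells had 1 UMI, and the part of free RNA was not tested.

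The other members were scattered outside the class. Gzma was in 40 such cells of metastasis with 94 UMIs, 33 of the cells with 1 UMI and 7 with more, and in 6 cells of naive with 17 UMIs, 2 with 1 UMI and 4 with more. The highest in metastasis were a macrophage/monocyte-like cell with 28 UMIs, which had 2 of the T/NK markers, and an olfactory ensheathing-like cell with 21, and the highest in naive had 7. Cells with at least 2 T/NK markers numbered 7 of the 40 in metastasis, with 55 of the UMIs, and 2 of the 6 in naive, with 10. Nkg7 was in 72 cells of metastasis, 62 with 1 UMI, and in 28 of naive, 26 with 1 UMI. Foxp3 was in 4 melanoma-like cells, and Il17a was in no cell of metastasis and 7 of naive, with 1 UMI in each of these cells. In barcodes under 1000 UMIs, 8 of the 10 members had a counting interval of the log2 ratio above 0, as did 25.6% of all genes with a UMI there. Of genes with at least 20 UMIs there, 6 of 7 members and 41.4% of all genes had one.

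The members were compared with 18808 other genes by the correlation of log2(CPM + 10) over 42 profiles of class and library, in which profiles share libraries and depth. Gzma, Gzmb and Prf1 were all most like Klrb1f, an NK receptor gene, with Pearson r of 0.94, 0.95 and 0.90. Gzma was next most like Samd3 at 0.91 and Cd244a at 0.88, Gzmb like Xcl1 at 0.88 and Gimap7 at 0.85, and Prf1 like Styk1 at 0.90 and Samd3 at 0.82. Nkg7 followed Ctsw at 0.98, Il2rb at 0.95 and Txk at 0.93, and Klrd1 followed Tespa1 at 0.93, Runx3 and Ptpn22, both at 0.91. Cd8a followed Cd8b1 at 0.96 and Gpr18 at 0.83, and Cd4 followed Cd28 at 0.87, Il7r and Icos, both at 0.85. Il17a had its closest patterns in Gm48335 at 0.86, Gm6085 and Samd11, both at 0.85, genes of low count. Fasl and Foxp3 had too few UMIs for this comparison.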

How the data were processed

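The deposited matrices hold whole-number UMI counts without normalization or cell filter, per the file headers. Each lists 6794880 barcodes, and the totals are 89193669 UMIs for metastasis and 69445557 for naive. STARsolo and build GRCm38 are named in the submitters' processing notes; the sources used here give no version, annotation or strand setting. Gene coordinates are from the GENCODE vM21 annotation of GRCm38 and promoter sequences from RefSeq; 8 of the 10 members had a promoter entry, and Cd4 and Klrd1 had none.

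Barcodes passing the limits of 1000 UMIs, 500 genes and 20% mitochondrial UMIs went to scanpy 1.11.5 (Python 3.11.15). Scrublet's automatic threshold marked 0 barcodes of metastasis and 855 of naive, so the highest 6% of scores was taken in each library, which removed 806 barcodes of metastasis and 807 of naive. Clustering used 2000 variable genes without the members, 30 principal components, 15 neighbours and Leiden resolution 1 (igraph 0.11.9), in 3 rounds: all cells, immune clusters, T/NK-like cells. For a name, the markers needed a median log2 fold of 1 or more with 20 CPM added and at least 3 of them at 2-fold, and no other list could have more markers in the top 10 genes. Naming thresholds, the rounds and the removal of the oligodendrocyte-led group were set after clusters had been seen.

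Counts were summed per class and library and divided by all UMIs of that class, as CPM. Shares have exact Clopper-Pearson intervals and ratios exact conditional binomial intervals, at 95%, computed with scipy 1.17.1. UMIs remove PCR copies but not capture error. A value of 2-fold is a rule of size, applied to genes with at least 20 UMIs over both libraries. All 10 members are named, and from each list up to 4 genes with the highest CPM in T/NK-like cells of metastasis among those with at least 20 UMIs in kept cells. Genes outside that rule (Klra8, Serpinb9, Tox, Il17f) were chosen after their values were seen. The members and lists were chosen with earlier results of these data known. Some genes that the rules name are not reported here. The ratio interval was tested on simulated data.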

Additional observations from a re-analysis of the deposited data

Results flagged for a closer look

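The barcodes under 1000 UMIs, which entered no class, held members above the level of the same barcodes in naive. They summed to 16820597 UMIs in metastasis and 16256061 in naive. Gzma had 273 UMIs there in metastasis and 38 in naive, Nkg7 270 and 55, Klrd1 113 and 16, and Gzmb 95 and 2. Cd8a had 34 UMIs in metastasis and 8 in naive, Prf1 25 and 6, Fasl 12 and 3, and Cd4 9 and 1. Each of these 8 ratios had a counting interval above 0 on the log2 scale, from 1.95 (0.06 to 4.42) for Fasl to 5.52 (3.63 to 8.59) for Gzmb. Of all genes with a UMI in these barcodes, 25.6% of 29507 had such an interval, and of those with at least 20 UMIs 41.4% of 17532, beside 6 of 7 members with as many. Foxp3, with 5 UMIs in metastasis and 1 in naive, did not have such an interval, and Il17a was lower in metastasis, with 1 and 23 UMIs. Whether these UMIs come from shallow lymphocytes or from free RNA was not tested.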

How the results depend on the processing

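The share of T/NK-like cells was 0.196% in metastasis and 0.153% in naive with at least 2000 UMIs, and 1.17% and 0.698% when cells were named 1 by 1 from 2 markers. The part of the members' UMIs in metastasis that lay in the class was 34.0% with at least 2000 UMIs, 58.9% with at most 10% mitochondrial UMIs, 59.0% with doublets kept, 56.0% with scrublet's automatic threshold, 81.6% when cells were named 1 by 1, and 74.6% with the oligodendrocyte-led group kept. The count of members at least 2-fold higher over kept cells was 6 with at least 2000 UMIs, and 2 to 4 under the other alternatives. The share of all genes that much higher was not counted under the alternatives. In T/NK-like cells the log2 ratio ran from 1.02 to 2.01 for Gzmb over 10 alternatives, from 0.39 (cells named 1 by 1) to 4.10 (at least 2000 UMIs) for Gzma, and from -4.15 to -3.27 for Il17a over the 9 that gave a value; Klrd1 (-0.29 to 1.70), Cd8a (-0.53 to 0.81) and Prf1 (-0.28 to 0.81) had no fixed sign. Over all barcodes of a library the log2 ratios were 1.92 for Gzma, 2.94 for Gzmb, 1.49 for Klrd1 and 0.92 for Nkg7. The causes were not tested. The automatic threshold, the kept group, the left-out top cells and the ratios within the class were alternatives chosen after seeing the data. No paired analysis was possible because each condition is 1 library and the labels give no replicate numbers. The log2 ratio of Cd4 in T/NK-like cells ran from -1.46 (cells named 1 by 1) to -0.60, with -1.28 at the limit of 2000 UMIs, and that of Nkg7 from -0.74 to -0.05. Depth limits the members with few UMIs in the class, Fasl, Foxp3 and Cd4 among them.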
